A study of Rattus norvegicus with 8 samples.

Results

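The genes described here encode the mitochondrial respiratory chain, that is complexes I to IV and the ATP synthase (complex V), with their assembly factors. They were taken as the mRNA probes of the array whose RefSeq transcript carried a rat symbol starting with Ndufa, Ndufb, Ndufc, Ndufs or Ndufv, Sdha to Sdhd, Uqcr, Cox4 to Cox8, or Atp5. This gave 84 probes for 81 genes, of 15323 mRNA probes and 24684 probes in all. A further 41 of the 122 protein-coding genes with such a symbol had no matched probe, among them Cox7a1, Cox7b2, Ndufa4l2 and Atp5mc3. The array was a 1-colour Agilent design that measures long non-coding RNAs and mRNAs together.

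All animals were male F344 rats sampled at week 95, and their age was not given in the sources used here. The lung groups were 3 normal lung tissues and 3 lung tumors described as matched, all from rats given NNK, a nitrosamine of tobacco smoke that causes lung tumors, so the normal lung was exposed to NNK as well. The study's methods give the tumors as adenocarcinoma of moderate differentiation. The blood groups were 1 blood clot sample of the control group and 1 of the NNK group. The study's text does not state how many rats each sample came from. One label of the NNK clot named lung cancer tissue by mistake, but its other labels gave a blood clot, and the sample was treated as such.

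The respiratory chain passes electrons from NADH (complex I) and succinate (complex II) through ubiquinone to complex III, cytochrome c and complex IV, which reduces oxygen. Complexes I, III and IV pump protons, and complex V uses the proton gradient to make ATP. Most subunits are encoded in the nucleus, and the symbols used here cover only those. Several complex IV subunits exist as broadly expressed and tissue-restricted isoforms. Of the 81 genes, 37 encoded complex I subunits or assembly factors (7 core, 25 accessory and 5 assembly), 5 complex II with its assembly factor Sdhaf2, 7 complex III, 17 complex IV and 15 complex V with its inhibitor Atp5if1.

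The promoters of these genes are known for sites of NRF1, of ETS factors such as GABP, and of YY1, so the members were read for such letters. A RefSeq promoter entry (assembly GRCr8, 250 bases before and 50 after the gene start) was found for 72 members. The NRF1 letters, GCGC and TGCGC with 1 free base between them, on either strand, stood in 14 of the 72 (19.4%) and in 6.1% of 19005 coding promoters of the same length. The ETS letters CCGGAAG stood in 22 (30.6%, against 11.2%) and the YY1 letters AANATGGCG in 13 (18.1%, against 4.0%). At least 1 of these 3 was present in 41 members (56.9%) and in 18.7% of coding promoters. The letters CCAAT were found in 33.3% of members and 38.4% of coding promoters, the MEF2 letters, CTA and TAG with 4 free bases between them, in 2.8% and 3.4%, and TATAAA in 6.9% and 13.1%. Among the complexes, 9 of 13 complex V promoters and 14 of 23 of the complex I accessory subunits held at least 1 of the 3, and 0 of the 4 promoters of tissue-restricted complex IV isoforms did. The ETS and YY1 letters can overlap by their A and G bases, so 1 stretch can count for both. A match is a description of the letters, and binding was not measured.

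The 130 bases before the start are shown for 6 members that the results below turn on, 4 broadly expressed and 2 tissue-restricted, with the match in capitals. Atp5mc2 (chr7:135678219-135678348, minus strand) carries the NRF1 letters 56 bases before the start, and Sdha (chr1:30764423-30764552, plus strand) carries them 2 times on the opposite strand. Cox8a (chr1:213833624-213833753, minus strand) and Uqcrc2 (chr1:184599110-184599239, plus strand) carry the ETS letters 2 times each, read on the opposite strand. The muscle isoform gene Cox6a2 (chr1:192219717-192219846, minus strand) holds the MEF2 letters 50 bases before the start, and Cox8b (chr1:205408274-205408403, minus strand) holds TATAAA 39 bases before it. These letters were not particular to tissue isoforms. Over the whole entries the MEF2 letters also stood in the broad gene Cox5b, and TATAAA in Atp5mg, Atp5mk, Ndufa2 and Ndufa7. Atp5mc1 and Cox6b1, which rose in tumor as told below, held none of the NRF1, ETS or YY1 letters.
Atp5mc2: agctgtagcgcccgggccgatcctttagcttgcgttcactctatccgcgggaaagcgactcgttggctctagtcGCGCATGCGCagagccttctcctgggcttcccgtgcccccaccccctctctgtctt
Sdha: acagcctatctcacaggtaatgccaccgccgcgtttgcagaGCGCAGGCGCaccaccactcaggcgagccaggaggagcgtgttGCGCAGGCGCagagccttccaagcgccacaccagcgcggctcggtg
Cox8a: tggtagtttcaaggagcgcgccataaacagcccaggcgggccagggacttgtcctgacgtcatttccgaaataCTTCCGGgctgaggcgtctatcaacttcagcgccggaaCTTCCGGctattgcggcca
Uqcrc2: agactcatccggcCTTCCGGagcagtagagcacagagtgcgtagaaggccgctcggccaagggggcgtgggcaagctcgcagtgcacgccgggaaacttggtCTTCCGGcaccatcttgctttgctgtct
Cox6a2: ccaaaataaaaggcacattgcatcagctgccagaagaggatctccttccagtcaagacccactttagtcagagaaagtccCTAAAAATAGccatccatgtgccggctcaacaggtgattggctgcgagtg
Cox8b: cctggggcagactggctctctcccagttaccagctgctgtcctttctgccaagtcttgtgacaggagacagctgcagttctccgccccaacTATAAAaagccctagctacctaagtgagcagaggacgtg

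The lung arrays were not 6 equally distinct samples. Over probes with 3 spots, the squared differences among the 3 normal lung arrays were 0.473 to 0.766 times those expected from the spots alone, and between tumors 2 and 3 they were 0.488 times. Tumor 1 differed from tumors 2 and 3 by 4.25 and 4.80 times that noise. Normal lung and tumor arrays differed by 9.12 to 15.9 times. The count of members called is therefore also given with the near-identical arrays counted as 1 sample, which leaves 1 normal and 2 tumor samples, the normal one assumed to vary like the tumors. Nothing in the labels states that the samples of a group came from separate animals, and the p-values measure the spread between these arrays, which may be technical. The 3 normal arrays and tumor 1 shared a slide (the arrays of 1 scan), tumors 2 and 3 another, and the 2 blood arrays a further one. Feature Extraction marked as outliers 4.92% to 8.62% of the spots above background on normal arrays and 15.93% to 25.28% on tumor arrays, so results are given without marked spots and with them.
The labelled tissues bore their markers. The surfactant gene Sftpb gave log2 signals of 17.67 to 17.86 in normal lung, 17.45 to 17.52 in tumor, and 4.11 and 4.39 in blood, and the globin gene Hbb gave 19.33 on both blood arrays.

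The question in lung was how these genes differ between tumor and normal tissue. Most rose in the tumors by a small step, while 3 tissue-restricted isoforms of complex IV fell by far more. Of the 84 probes, 82 were well above background on at least 3 lung arrays, and 51 of them kept enough unmarked spots to be tested. Ndufb11 and Uqcrq were not above background on any array. Among the 51, 30 (58.8%) were higher in tumor and 4 (7.84%) lower at an adjusted p of 0.05 (limma, Benjamini-Hochberg over all 12471 probes tested). Over all these probes 33.7% were called higher and 31.4% lower, and among the mRNA probes 32.6% and 33.4%. The median log2 difference of the 51 members was 0.40, beside 0.07 over all probes tested and 0.00 over mRNA probes. A change of at least 2-fold was called upward for 1 member, where 13.5% of all probes were, and downward for 3, where 15.5% were. With the marked spots kept, 82 members were tested, 48 were higher (34.5% of all 15803 probes tested) and 7 lower (31.6%), 6 of them by at least 2-fold up (13.5%) and 4 by at least 2-fold down (14.4%), with a median of 0.42. With the near-identical arrays counted as 1 sample and marked spots kept, 1 member was called higher (6.9% of all probes) and 3 lower (8.52%), namely Ndufa9, and Cox8b, Cox8c and Cox4i2. With marked spots left out, that count was 0 higher and 2 lower.

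**Figure D1:**
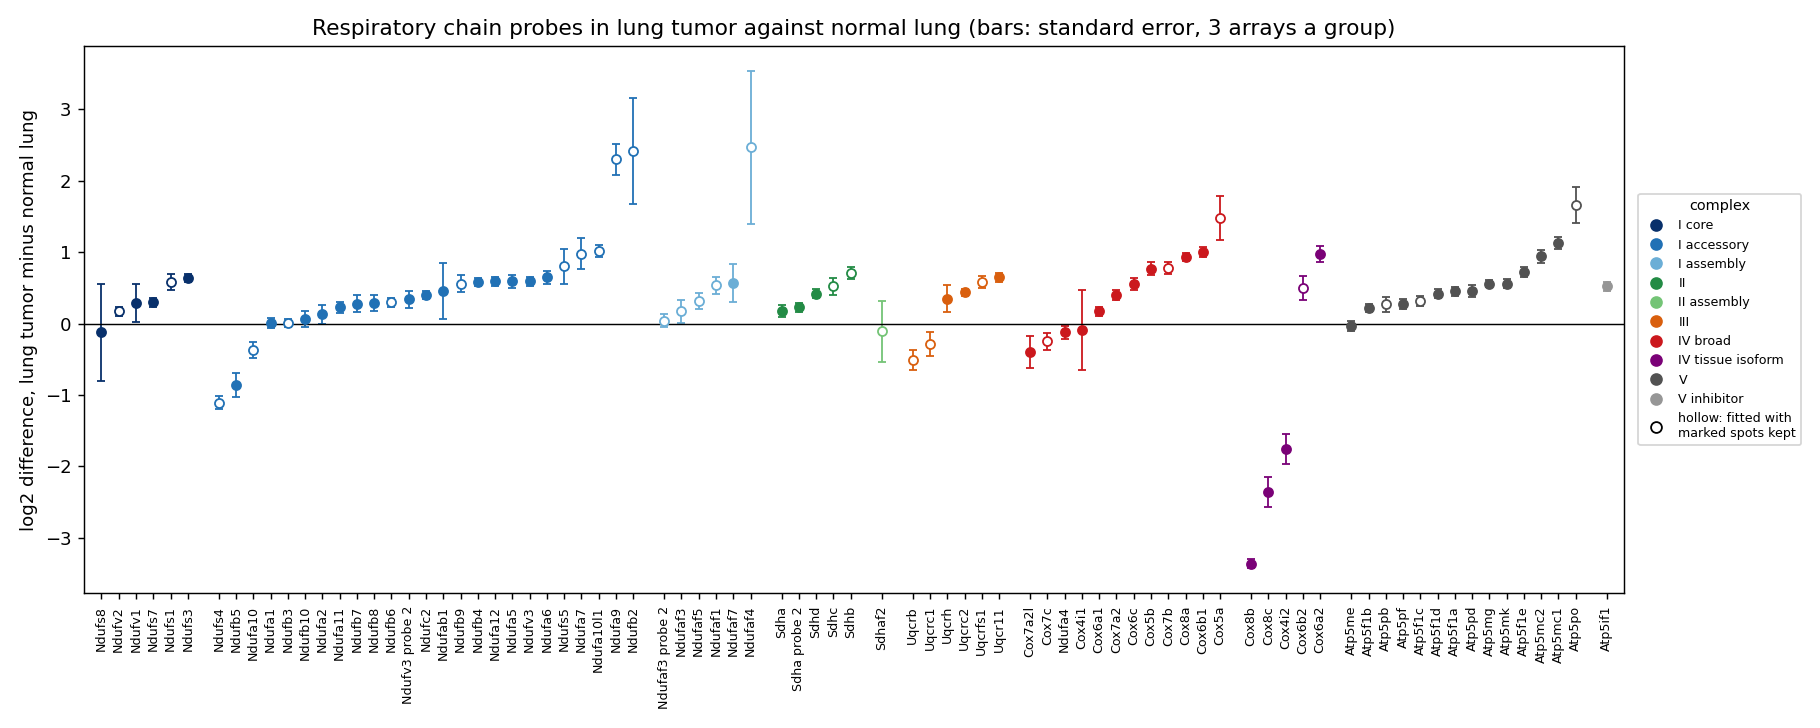
Log2 difference between lung tumor and normal lung for 81 of the member probes tested, grouped by complex, with the standard error of the limma fit (3 arrays a group). Filled points were fitted without outlier-marked spots and hollow ones with them. Most points lie between 0 and 1, and Cox8b, Cox8c and Cox4i2 lie at -3.36, -2.36 and -1.76.

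Complex V, the ATP synthase, rose almost throughout. Of its 14 subunit probes 11 were tested without marked spots and 10 rose, beside 33.7% of all probes, with a median log2 difference of 0.45. Atp5mc1 encodes the membrane-embedded c subunit of the rotor. Its log2 signals were 14, 14.09 and 14.18 in normal lung and 15.33, 15.15 and 15.17 in tumor, a rise of 1.13 (SE 0.0812, 2.18-fold, adjusted p = 0.000138 by limma). All 3 tumor arrays lay above all 3 normal arrays. Atp5mc2, a second gene for the same mature c subunit and shown above with its NRF1 letters, rose from 15.31, 15.39 and 15.46 to 16.45, 16.21 and 16.32, or by 0.94 (SE 0.0849, adjusted p = 0.000328). Atp5f1e, the epsilon subunit of the catalytic head, rose by 0.72 (SE 0.0671), from 16.33 to 16.35 in normal lung to 16.99 to 17.18 in tumor. The catalytic subunits themselves moved less. Atp5f1a (alpha) rose by 0.45 (SE 0.0661) and Atp5f1b (beta) by 0.22 (SE 0.0524, adjusted p = 0.0129, or 0.0554 without normal lung 2). Atp5me, a small membrane subunit, gave a difference of -0.03 with overlapping groups (adjusted p = 0.677). Atp5po, the stalk subunit known as OSCP, was tested only with marked spots kept and then rose by 1.66 (SE 0.247), from 10.75, 10.17 and 10.17 to 12.41, 11.95 and 11.71. Atp5if1, the inhibitor that binds the enzyme when the gradient falls, rose as well, by 0.52 (SE 0.0636, adjusted p = 0.00106).

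The broadly expressed subunits of complex IV rose in 5 of 9 tested cases, beside 33.7% of all probes. Cox6b1, which sits on the intermembrane side, had log2 signals of 8.14, 8.05 and 8.14 in normal lung and 9.22, 9.04 and 9.06 in tumor, a rise of 1.00 (SE 0.0715, adjusted p = 0.000134). Cox8a, the broad form of subunit 8 with 2 ETS matches above, rose from 15.90, 15.82 and 15.87 to 16.74, 16.79 and 16.85, or by 0.93 (SE 0.0573, adjusted p = 7.58e-05). In both genes the tumor and normal arrays were separate. Cox5b, a matrix-side subunit, rose by 0.77 (SE 0.0936). Cox6c rose by 0.55 and Cox7a2 by 0.40. Cox6a1 gave 0.17 (adjusted p = 0.0548), Cox7a2l, a factor of supercomplex assembly, -0.40 (adjusted p = 0.175), Ndufa4, a complex IV subunit first assigned to complex I, -0.12 (adjusted p = 0.297), and none of these passed the test. Cox4i1, the broad form of subunit 4, was spread more widely than its group difference, with 9.47, 9.11 and 7.86 in normal lung and 9.06, 8.38 and 8.49 in tumor. Cox7c gave -0.25 with marked spots kept (adjusted p = 0.101). With marked spots kept, Cox5a rose by 1.48 (SE 0.309, adjusted p = 0.00809) and Cox7b by 0.78 (SE 0.0878), the latter by 0.52 and short of the threshold with normexp (adjusted p = 0.0547).

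The tissue-restricted isoforms of complex IV held the largest falls among the members. Cox8b, the subunit 8 isoform of heart, skeletal muscle and brown fat, gave log2 signals of 11.16, 11.13 and 11.11 in normal lung and 7.85, 7.82 and 7.66 in tumor, and fell by 3.36 on the log2 scale (SE 0.0684, 10.3-fold, adjusted p = 4.18e-06). Every tumor array lay far below every normal one, and no spot of this probe was marked. Cox8c, the testis isoform of the same subunit, fell from 6.97, 7.04 and 6.97 to 5.03, 4.67 and 4.21, or by 2.36 on the log2 scale (SE 0.210, 5.13-fold, adjusted p = 0.00031). Cox4i2, the isoform of subunit 4 that is enriched in lung, fell from 6.22, 5.77 and 5.74 to 4.29, 4.37 and 3.79, or by 1.76 on the log2 scale (SE 0.210, adjusted p = 0.000983). With normexp background correction Cox4i2 and Cox8c fell less, by 0.65 and 1.12 on the log2 scale, and both stayed past the threshold. Cox6a2, the muscle isoform of subunit 6a, went the other way. Its signals of 7.76, 7.71 and 7.80 rose to 8.96, 8.66 and 8.58, or by 0.98 (SE 0.113, adjusted p = 0.000875). Cox6b2, the testis isoform of subunit 6b, rose by 0.50 (SE 0.171, adjusted p = 0.0448) with marked spots kept, and this call was lost without any 1 of the 3 normal arrays or without tumor 2 or 3 (differences of 0.33 to 0.54), and with the slide as a block (0.19). So the members of this group did not move together, and Cox8b and Cox6a2, both muscle isoforms, differed in sign.

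**Figure D2:**
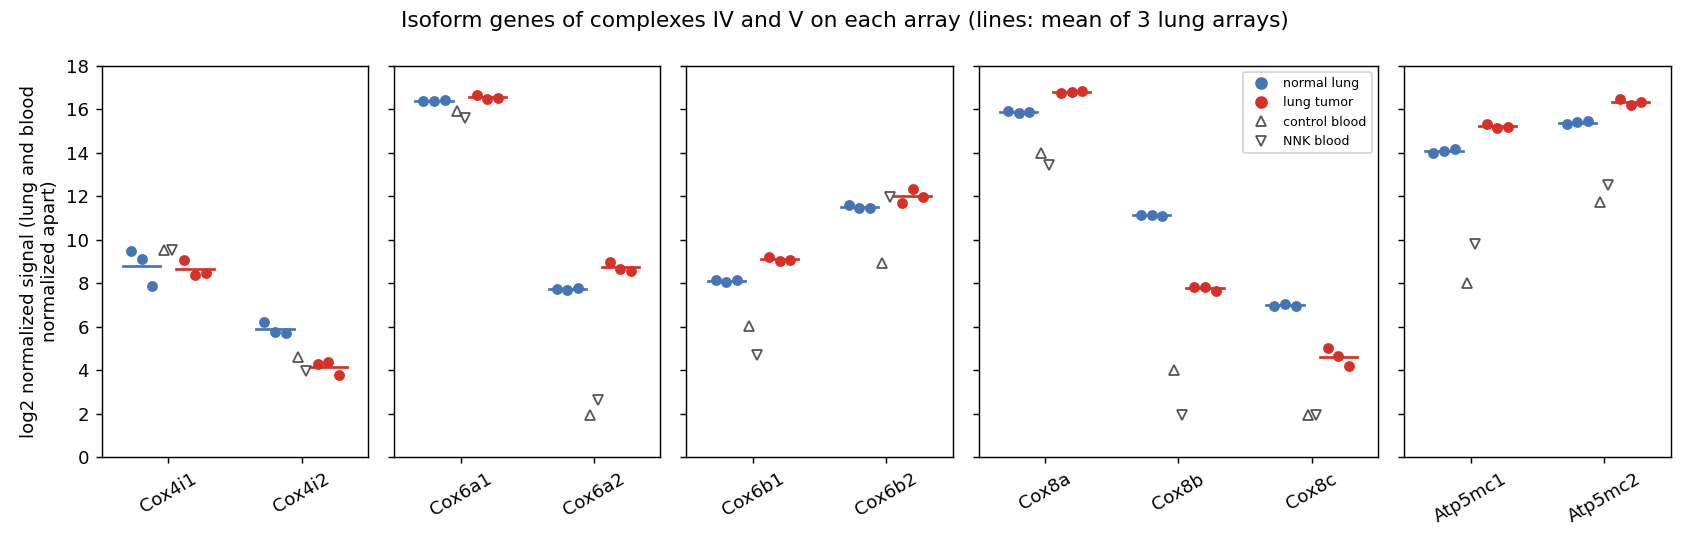
Log2 normalized signal on each array for isoform genes of complexes IV and V, with marked spots kept. Blue and red points are the 3 normal lung and 3 lung tumor arrays with their mean as a line, and triangles are the blood arrays, which were normalized apart from lung. Levels of different genes come from different probes and are not comparable, but within a gene the tumor points of Cox8b, Cox8c and Cox4i2 lie below all normal points and those of Cox8a, Cox6a2 and Cox6b1 above.

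Marker genes of several cell types differed between the same arrays, and their part in the isoform differences was not tested. Of 10 heart muscle genes 9 had probes. Their summed log2 signal was 10.43 to 10.58 in normal lung and 11.62 to 11.91 in tumor, with Myl7 and Ryr2 above background on no lung array. Tnnt2 and Tnni3 were higher in tumor by 4.94 (marked spots kept) and 1.05, while Myh6 fell by 1.95 on the log2 scale. Of 5 adipocyte genes 4 had probes, with summed signals of 12.41 to 12.50 in normal lung and 13.24 to 13.59 in tumor, where Adipoq rose by 5.27 and Lep was above background on no lung array. The brown fat gene Ucp1 was above background on 2 lung arrays. Endothelial genes (3 of 5 with probes) summed to 17.29 to 17.36 in normal lung and 14.59 to 14.62 in tumor, with Tek down by 2.74 on the log2 scale and Cdh5 above background on no lung array. All 6 type 1 alveolar genes had probes and summed to 20.22 to 20.24 in normal lung and 18.30 to 18.40 in tumor, where Rtkn2 rose by 1.00 and the other probes fell. Rtkn2 was dim and above background on only 3 lung arrays, with 2.56 to 2.83 in normal lung and 3.27 to 4.09 in tumor. All 5 red blood cell genes had probes and summed to 17.77 to 17.82 in normal lung and 17.01 to 17.10 in tumor. The red blood cell sum followed the bright gene Hbb, whose log2 difference was -0.57. With marked spots kept all 5 were lower in tumor, 4 of them by at least 2-fold. Their median log2 difference was -2.49, and Alas2 was lowest at -3.09. Smooth muscle genes (4 of 6) summed to 15.60 to 15.66 and 15.35 to 15.65, macrophage genes (4 of 5) to 17.17 to 17.27 and 17.25 to 17.50, with Marco above background on no lung array. With marked spots kept, Cnn1 of smooth muscle rose by 0.70 and Des fell by 0.71 on the log2 scale. The macrophage gene Mrc1 rose by 0.36 and Csf1r fell by 0.77, so members of both lists went opposite ways. T cell genes (all 5) summed to 14.05 to 14.11 in normal lung and 13.15 to 13.32 in tumor, neutrophil genes (4 of 5) to 13.58 to 13.66 and 11.62 to 11.91, and platelet genes (4 of 5) to 12.27 to 12.36 and 12.92 to 13.15. The platelet sum followed Pf4, which rose by 0.98, whereas Ppbp, Gp9 and Gp1bb fell by 2.67, 2.15 and 1.91 on the log2 scale, all with marked spots kept. Type 2 alveolar genes (5 of 6) summed to 19.62 to 19.70 and 19.83 to 19.86, and club and airway genes (3 of 5) to 18.11 to 18.31 and 18.16 to 18.26. With marked spots kept, Sftpc, Napsa and Lamp3 rose by 1.14, 0.99 and 0.83 while Sftpb and Sftpa1 fell by 0.30 and 0.26 on the log2 scale. The airway gene Cyp2f4 rose by 1.08, and Scgb1a1 and Scgb3a2 did not pass the test. Liver genes (6 of 8) summed to 14.69 to 14.75 in normal lung and 13.59 to 13.72 in tumor, where Hp rose by 2.02 with marked spots kept and the other 5 fell, and the proliferation genes (2 of 5, of which Cdk1 rose by 2.52) to 11.56 to 11.68 and 13.64 to 14.40. In such bulk tissue fewer cells of a type and less RNA per cell cannot be told apart.

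Complex I, the entry point for NADH, rose in several of its core subunits. Ndufs3, which lies in the peripheral arm, gave 14.60, 14.50 and 14.50 in normal lung and 15.12, 15.22 and 15.18 in tumor, a rise of 0.64 (SE 0.0584, adjusted p = 0.000342). Ndufs7, which carries the last iron-sulfur cluster before ubiquinone, rose by 0.30 (SE 0.0629, adjusted p = 0.00869), but by 0.10 with the arrays shifted to their 75th percentile (adjusted p = 0.336). With marked spots kept Ndufs1, the largest core subunit and carrier of several iron-sulfur clusters, rose by 0.58 (SE 0.112) and Ndufv2 by 0.17 (SE 0.0582, adjusted p = 0.049), the last of which lost its call without any 1 of the 3 normal arrays or without tumor 2 or 3 (differences of 0.14 to 0.19), and was 0.01 with the percentile shift. Ndufv1, the flavin-bearing subunit that accepts electrons from NADH, gave 0.29 (adjusted p = 0.394). Ndufs8 gave -0.12 (adjusted p = 0.888), with normal arrays at 7.09, 6.66 and 4.67.

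The accessory subunits of complex I surround the core. Of 15 tested without marked spots 7 rose and 1 fell, beside 33.7% and 31.4% of all probes. Of 25 tested with them 14 rose and 3 fell, beside 34.5% and 31.6%. Ndufa6, Ndufa12, Ndufa5, Ndufv3 and Ndufb4 rose by 0.58 to 0.65, Ndufc2 by 0.40 and Ndufa11 by 0.23. Ndufb5, of the membrane arm, was the only one to fall without marked spots, from 9.90, 9.77 and 9.76 to 9.19, 8.71 and 8.63 (difference -0.86, SE 0.164, adjusted p = 0.0101). Ndufs4, which is needed for a stable NADH-binding module, fell with marked spots kept from 13.84, 13.81 and 13.70 to 12.83, 12.55 and 12.64 (difference -1.11, SE 0.0911, adjusted p = 0.000194). Ndufa9, an accessory subunit near the ubiquinone site, rose with marked spots kept from 7.65, 7.16 and 7.06 to 9.85, 9.61 and 9.31 (difference 2.30, SE 0.212, 4.93-fold), the only rise that was also called with near-identical arrays counted as 1 sample (adjusted p = 0.0322). Ndufa1 and Ndufb3 lay within 0.01 of 0. Ndufa10 and its near copy Ndufa10l1 gave -0.37 and 1.02 with marked spots kept. The probe sequences were not used here, so signal shared between that pair cannot be judged. The 2 probes of Ndufv3 gave 0.59 (adjusted p = 0.00138) and 0.34 (adjusted p = 0.0531).

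Of the complex II probes 2 of 3 tested rose without marked spots and 3 of 5 with them, and of those of complex III 2 of 3 and 3 of 6, with 1 fall. Over all probes tested 33.7% were called higher without marked spots and 34.5% with them. Sdhd, a membrane anchor of succinate dehydrogenase, rose by 0.42 (SE 0.0663, adjusted p = 0.00301). Sdhb, the iron-sulfur subunit, rose with marked spots kept from 10.90, 11.17 and 11.01 to 11.78, 11.73 and 11.70, or by 0.71 (SE 0.0836), and Sdhc, the other anchor, by 0.52 (SE 0.122). With normexp these were 0.32 (adjusted p = 0.0606) and 0.31 (adjusted p = 0.216), and Sdhc was 0.31 with the percentile shift (adjusted p = 0.104). The 2 probes of Sdha, the flavoprotein with NRF1 letters above, gave 0.18 (adjusted p = 0.123) and 0.23 (adjusted p = 0.0251). The second call was lost with marked spots kept (adjusted p = 0.0931) and without any 1 of the 3 normal arrays (adjusted p of 0.06 to 0.0835). In complex III Uqcr11, a small subunit, rose by 0.65 (SE 0.0649) and the core protein Uqcrc2 by 0.44 (SE 0.0511), from 16.43 to 16.45 in normal lung to 16.82 to 16.91 in tumor. Uqcrfs1, the Rieske iron-sulfur protein, rose by 0.58 (SE 0.083) with marked spots kept. Uqcrc1, the other core protein, gave -0.29 (adjusted p = 0.172), while Uqcrb, a ubiquinone-binding subunit, fell by 0.51 on the log2 scale (SE 0.136, adjusted p = 0.0202), both with marked spots kept. Uqcrh, the hinge protein, gave 0.35 (adjusted p = 0.152).

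The tumor arrays were alike for most members but not for all. The median difference from the normal mean over the 82 members was 0.43, 0.39 and 0.41 for tumors 1, 2 and 3, with 68, 67 and 60 members above it. Ndufaf4, an assembly factor of complex I, had 7.25, 7.42 and 7.66 in normal lung, 7.42 in tumor 1, and 11.02 and 11.27 in tumors 2 and 3. Ndufb2, an accessory subunit, had 10.24 to 10.43 in normal lung, 11.04 in tumor 1, and 13.53 and 13.73 in tumors 2 and 3. So the difference of 2.47 for Ndufaf4 (SE 1.07, adjusted p = 0.0908) and of 2.42 for Ndufb2 (SE 0.743, adjusted p = 0.0321), both with marked spots kept, came mostly from tumors 2 and 3. The Ndufb2 call was lost without any 1 of the 3 normal arrays or without tumor 2 or 3 (adjusted p of 0.0763 to 0.0964). Within the slide that held normal lung and tumor 1, the differences were -0.02 (adjusted p = 0.94) and 0.70 (adjusted p = 0.00638). Cox5a likewise gave 0.78 within that slide, against 1.48 over all arrays. Sdhaf2, which helps attach the flavin of complex II, went the opposite way, with 11.26 in tumor 1, 9.66 and 9.93 in tumors 2 and 3, and 10.33 to 10.48 in normal lung. Since tumors 2 and 3 made up the second slide, slide and tumor cannot be told apart for these genes. The large falls stood within the first slide, with Cox8b at -3.29 and Cox8c at -1.96. The second slide held no normal lung, so no such difference can be taken within it.

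**Figure D3:**
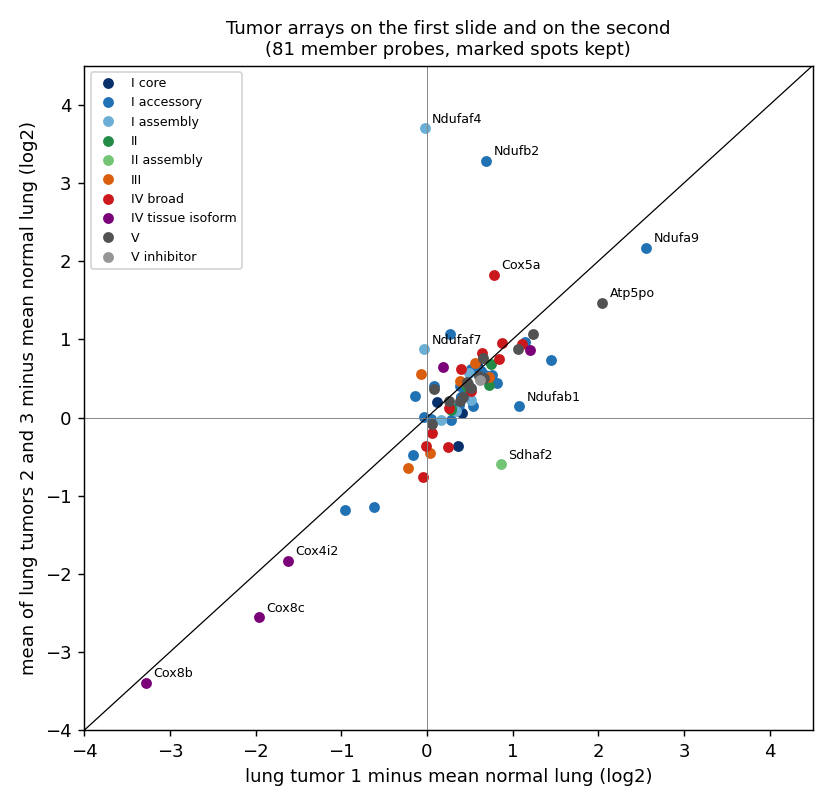
Difference from the mean of the 3 normal lung arrays in tumor 1 (first slide, horizontal axis) and in the mean of tumors 2 and 3 (second slide, vertical axis), in log2 units, for 81 member probes with marked spots kept. Most lie near the line of equality, while Ndufaf4, Ndufb2 and Cox5a lie above it and Sdhaf2 below.

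Other mitochondrial genes were read in 7 lists. Of complex III, IV and V assembly factors 13 of 22 probes were tested without marked spots, 9 rose and none fell. Over all probes tested 33.7% were higher and 31.4% lower, and with marked spots kept 34.5% and 31.6%. Cox19, a factor of copper delivery, gave 6.10, 6.39 and 6.46 in normal lung, 6.97 in tumor 1, and 8.54 and 8.50 in tumors 2 and 3 (difference 1.69, SE 0.457, adjusted p = 0.0219). So tumors 2 and 3, the second slide, lay apart from tumor 1 here too. Atpaf2, which helps assemble the catalytic head of complex V, was above background on 3 of the 6 lung arrays, with 1.37, 1.37 and 2.42 in normal lung and 4.03, 4.41 and 4.23 in tumor. Among electron carriers and entry enzymes 5 of 8 rose and 1 fell. Etfb, which passes on electrons from fatty acid oxidation, rose by 1.32 (SE 0.161), Coq7, of ubiquinone synthesis, by 1.13 (SE 0.0887), and Cyb5r3 fell by 0.95 on the log2 scale. In the TCA cycle 2 of 7 rose, Idh3b by 0.42 and Idh3g by 0.38, and Dlst fell by 0.41 on the log2 scale. Among transcription factors and the mitochondrial DNA machinery 2 of 8 rose, the mitochondrial factors Tfb1m by 0.71 and Mterf2 by 0.60, and Yy1 fell by 0.62 on the log2 scale. Nrf1 and Gabpa gave -0.26 and -0.34 with marked spots kept and did not pass the test. Ppargc1a was above background on no lung array. Of the carriers and porins 2 of 5 rose, Slc25a5 by 0.81 and Ckmt1 by 0.55. Of import and chaperone genes 6 of 9 rose, led by Timm23 at 0.92 and the prohibitin Phb2 at 0.84. Of complex I assembly factors without a Nduf name 2 of 5 rose, Tmem186 by 0.82 and Tmem126b by 0.60. With marked spots kept these 7 lists had, in the same order, 12 of 21, 7 of 14, 8 of 17, 6 of 18, 4 of 9, 8 of 14 and 2 of 6 members called higher, and 2, 1, 2, 1, 0, 0 and 0 called lower.

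In blood the question was how the sample of the NNK group differed from that of the control group, with 1 array each and no test. Of the 84 probes 70 were well above background on at least 1 blood array and 69 kept unmarked spots on both. At least 2-fold higher in NNK blood were 12 members (17.4%), beside 23.1% of all 14452 probes compared, and at least 2-fold lower 5 (7.25%), beside 19.1%. The median member difference was 0.26 and that of all probes -0.11. The sign of that median rested on the scaling. With a shift of each array to its 75th percentile the median was -0.29 for the members and -0.26 for all probes, with 10 members higher and 20 lower. For some complexes the sign did not rest on the scaling, and for others it did. All 5 complex II probes were higher in NNK blood, by 0.72 to 1.19 with quantile normalization and 0.59 to 1.08 with the shift, and so were all 5 core subunits of complex I compared, by 0.53 to 0.97 and 0.17 to 1.23. Of 11 broad complex IV probes only 2 were higher with quantile normalization and 1 with the shift, with medians of -0.30 and -1.16. The medians of complex V (0.22 and -0.75), complex III (0.33 and -0.07) and the complex I accessory subunits (0.02 and -0.73) changed sign. Signal level differed between the groups too. In control blood complex II lay at 6.70 to 8.91, those core subunits at 4.46 to 9.53 and broad complex IV at 6.06 to 15.92. In complex V dim Atp5mc1 (8.03) was higher by 1.79 and bright Atp5f1b (16.09) lower by 0.88, but dim Ndufs4 (7.83) of complex I was lower by 2.19. The part of signal level in these signs was not tested. Sdha gave 7.32 in control and 8.49 in NNK blood, and Cox7a2 gave 15.50 and 14.65.

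Single members differed by more. Cox6b2, the testis isoform, gave 8.92 in control and 11.98 in NNK blood, a difference of 3.05. One of the 2 probes of Ndufaf3, an assembly factor of complex I, gave 4.54 and 7.29, a difference of 2.75, while the other gave 4.75 and 5.38, so they disagreed. Atp5f1e gave 10.74 and 13.14 (2.40) and Atp5mc1 8.03 and 9.82 (1.79), and both had also risen in the tumors. Ndufaf5 was not well above background in control blood and was at least 3.27-fold higher in NNK blood. With quantile normalization the largest falls were those of Ndufs4, 7.83 and 5.65 (-2.19), Cox6b1, 6.06 and 4.69 (-1.38), Ndufa9, 7.19 and 6.04 (-1.14), and Ndufb2, 8.95 and 7.91 (-1.04). Each of these 8 differences kept its sign under the shift, but the order did not, since Cox5a (-1.95), Atp5f1b (-1.87), Cox7a2 (-1.86) and Atp5if1 (-1.82) then lay below Cox6b1 (-1.16), Ndufa9 (-1.08) and Ndufb2 (-1.24). Blood cell markers differed between the same arrays. The neutrophil genes summed to 13.75 in control and 16.06 in NNK blood, the platelet genes to 17.20 and 16.38, the red blood cell genes to 20.84 and 20.87, and the T cell genes to 14.18 on both. The neutrophil sum followed S100a8, at 13.71 and 16.04, while Fcnb, Mmp8 and Cxcr2 were higher in NNK blood by 1.76, 0.76 and 0.12. Single T cell genes differed although their sum did not, with Cd8a, Cd3e and Cd3g higher in NNK blood by 3.11, 2.13 and 1.97 log2 units and Cd2 and Cd3d at -0.54 and -0.26. Their part in the member differences was not tested.

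**Figure D4:**
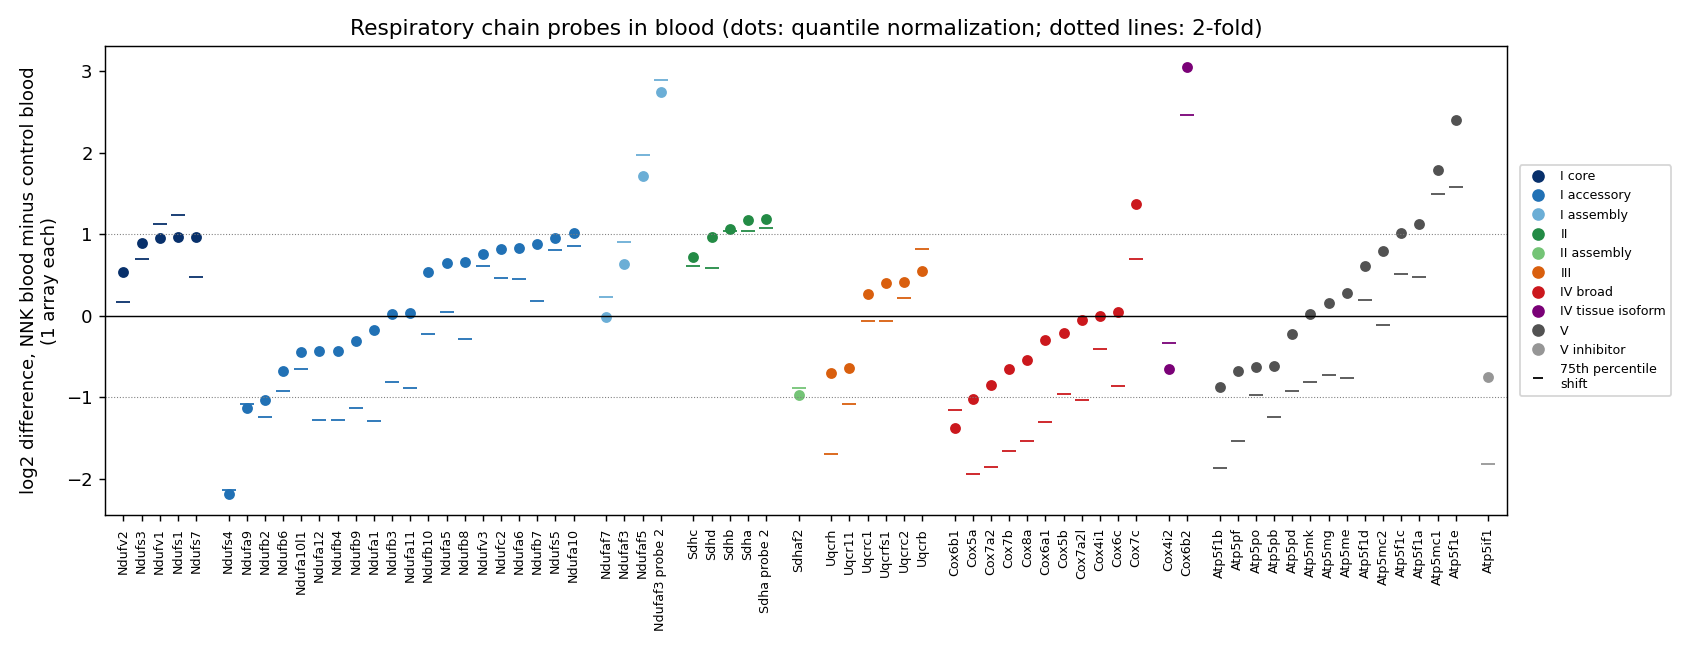
Log2 difference between NNK blood and control blood (1 array each) for the 69 member probes compared, grouped by complex. Dots are from quantile normalization, dashes from a shift of each array to its 75th percentile, and dotted lines mark 2-fold. Complex II and the complex I core lie above 0 under both, and most broad complex IV probes below.

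Blood and normal lung were also set side by side. The log2 signals were compared without scaling, gene by gene, and the genes named here were chosen after their values were seen. The blood arrays were on a slide without lung samples, so tissue and slide cannot be told apart here. Their 75th percentile signals before normalization were 95.4 (control) and 206 (NNK), against 1191 to 1329 on the normal lung arrays. For 68 members above background on both blood and all 3 normal lung arrays, the control blood array differed from the normal lung mean by a median of -4.05, and the NNK blood array by a median of -3.42. Over 7375 mRNA probes chosen the same way the medians were -4.52 and -3.38. In control blood 8 members (11.8%, against 10.7% of those mRNA probes) lay within 1 log2 unit of normal lung and 28 (41.2%, against 45.2%) lay more than 5 below it. After quantile normalization over all 8 arrays the member medians were -0.58 and -0.34 and those of the mRNA probes -0.84 and -0.51, with 21 members (30.9%, against 18.5%) within 1 unit and 5 (7.35%, against 10.7%) more than 5 below. Atp5if1, the inhibitor of ATP synthase, known for its part in heme synthesis in red cells, gave 16.54 in control and 15.83 in NNK blood and 14.84 to 14.97 in normal lung. Without scaling it lay above the normal lung mean on both blood arrays, as did Cox4i1 and Ndufa1. These were 3 of the 68 (4.41%, against 17.0% of the mRNA probes). With quantile normalization over 8 arrays 25 members lay above that mean on both (36.8%, against 36.9%). Without scaling Cox4i1, at 9.19 in control blood, was within its normal lung range of 7.69 to 9.38. Uqcrh gave 16.29 and 15.71 in blood and 16.06 to 16.20 in lung. Atp5f1b gave 16.04 and 15.27 against 16.56 to 16.68, whereas its partner Atp5f1a gave 9.81 and 11.40 against 16.55 to 16.67. Uqcrc2 gave 7.66 and 8.99 against 16.39 to 16.51. The first probe of Sdha gave 6.78 and 8.93 against 15.44 to 15.57, and Ndufc2 gave 8.47 and 10.04 against 16.10 to 16.31. So in control blood the difference from normal lung was -0.59 for Atp5f1b and -6.81 for Atp5f1a, which encode subunits of the same catalytic head. With that normalization Atp5if1 lay 3.19 (control) and 2.80 (NNK) above normal lung, Atp5f1b 0.82 and 0.37 above, Atp5f1a -3.10 and -2.26, and Uqcrc2 -4.87 and -4.36. The tissue isoforms Cox6a2, Cox8b and Cox8c were above background on neither blood array.

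**Figure D5:**
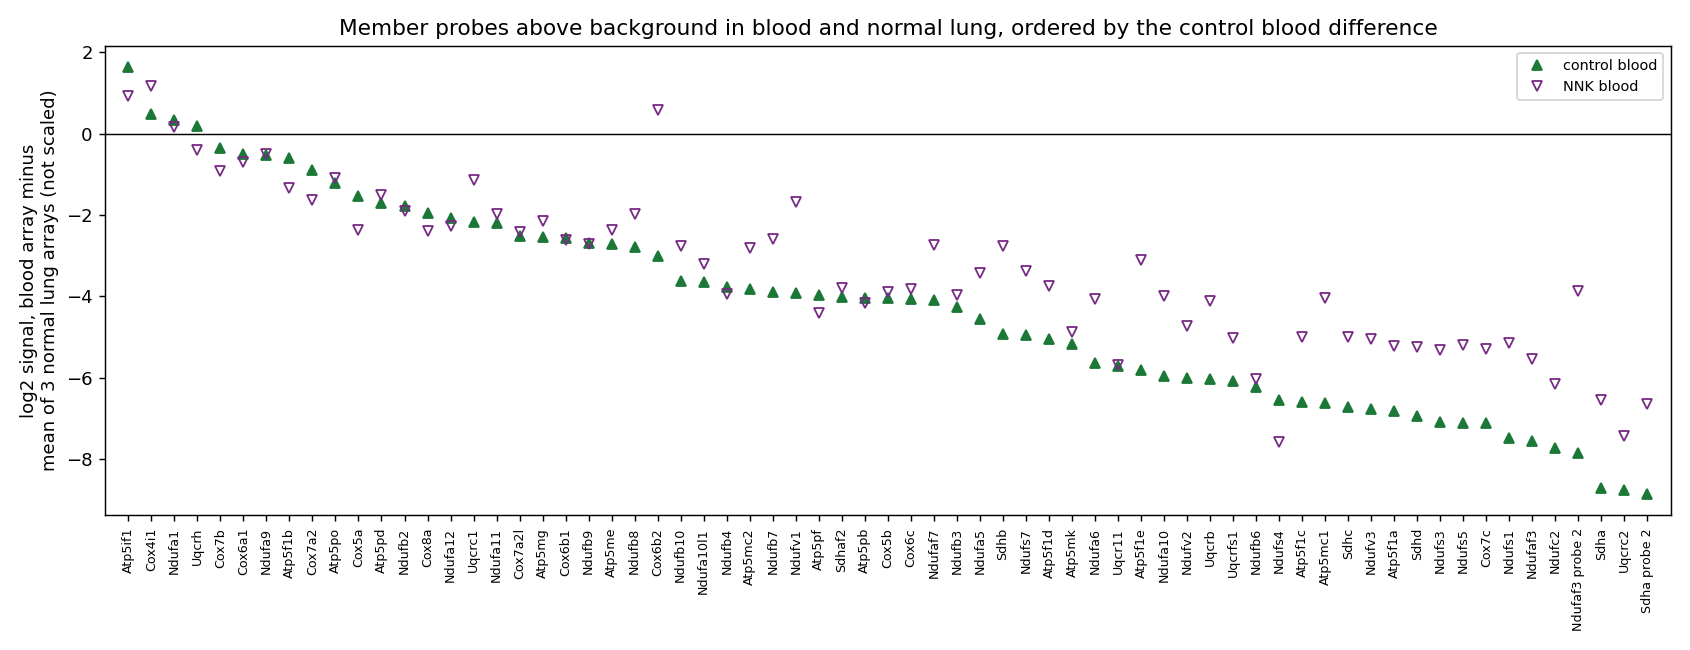
Unscaled log2 signal of each blood array minus the mean of the 3 normal lung arrays for 67 of the member probes above background in both, ordered by control blood. Filled triangles are control blood and open ones NNK blood. In control blood Atp5if1 lies highest at 1.63, and Sdha and Uqcrc2 lie at -8.71 and -8.77.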

How the data were processed

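Per the labels, the authors labelled total RNA with Cy3 and made scanner tables with Agilent Feature Extraction 10.5.1.1. The deposited intensity (processed signal) of each spot is background-subtracted and not normalized between arrays, and the deposited log2 values were quantile-normalized by the authors over all 8 arrays. Here the log2 processed signals of 42136 non-control spots were brought to common quantiles over the 6 lung arrays, and separately over the 2 blood arrays (R 4.3.3, limma 3.58.1), before averaging the spots of each probe. A probe counted as well above background where over 50% of its spots were, and was kept with at least 3 such lung arrays or 1 such blood array. Outlier-marked spots were left out in the first fit and kept in the second. Printed per-array values include marked spots. No spot was saturated. Lung groups were compared with lmFit and eBayes with at least 2 values a group, and p-values were Benjamini-Hochberg adjusted over all probes. Symbols came from RefSeq (GRCr8), matching 93.2% of mRNA probes.

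On simulated data for the lung comparison (11359 probes), limma recovered 62.5% and 45% of falls and rises by 1 log2 unit. It recovered 17.5% and 32.5% of those by 0.5, so in that setting small differences were often missed. The simulation changed a far smaller share of probes than was called in the data, which makes the adjusted threshold stricter. These rates therefore do not carry over to the fit of the data. Members, lists and tests were chosen with earlier results of these data known. Named members were core or catalytic subunits, isoform genes, the 8 largest rises and falls in lung that passed with separate groups (4 falls qualified), the 4 largest each way in blood, and members lost to outlier marks. Others named, the motif search, the comparison of blood with lung and the refits that joined kept marked spots with another alternative were chosen after values were seen. Alternatives were another scaling (75th percentile shift, or quantile over 8 arrays), normexp with an offset of 50 on the median signal, other filters, the authors' values, the methods' t-test, slide or replicate as a block, near-identical arrays counted as 1 sample, marked spots kept, and each lung array left out. The values of 1 member are not reported here, and it is left out of the figures but not of the counts.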

Additional observations from a re-analysis of the deposited data

How the results depend on the processing

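The count of members higher in tumor, 30, was 48 with marked spots kept, 53 with the authors' values and 0 with near-identical arrays counted as 1 sample, and that of members lower, 4, was 7, 7 and 2. The count at least 2-fold higher, 1, was 2 with the percentile shift, 3 with quantile normalization over all 8 arrays, 6 with marked spots kept, 7 with the authors' values, 4 with the slide as a block and 0 with near-identical arrays counted as 1 sample. The median lung difference of 0.40 was 0.37 with the shift, 0.45 with quantile normalization over 8 arrays and 0.49 with the authors' values. Leaving out each lung array gave 26 to 35 members higher, 3 to 4 lower, 1 to 3 at least 2-fold higher, 3 to 3 at least 2-fold lower and medians of 0.39 to 0.44. The 2-fold count was 2 without normal lung 1 or 3, and 3 without tumor 2 or 3. In blood, the counts at least 2-fold higher and lower (12 and 5) were 6 and 1 with normexp, and the lower count was 20 with the shift. The median of 0.26 reversed to -0.29 with the shift and was 0.20 with quantile normalization over 8 arrays, 0.22 with normexp, 0.27 with marked spots kept, 0.15 without a filter and 0.20 with the authors' values.
With the replicate number as a block, 27 members were higher and 4 lower. Same-numbered arrays deviated together with correlations of 0.143, -0.041 and 0.160, and normal lung 2 correlated best with tumor 1 (0.054). The normal arrays differed by less than the noise of their spots, so these correlations cannot show whether a number marks 1 animal. The fit was left unpaired because the study's methods name independent and paired t-tests without saying which was used on the arrays. Under the replicate block the second Sdha probe, Atp5f1b, Ndufv2 and Cox6b2 lost their calls. The methods' t-test at a 2-fold change called 1 member higher and 3 lower, before and after adjustment. Ndufv2 changed from 0.17 to 0.00 with normexp. Over the refits of single named members in lung, 573 counted as the same in call, 66 lost the call, 12 gained it and 1 counted as turned. Members without a call could change sign and still count as the same. Ndufs8 (-0.12) ranged from -0.85 to 0.36 and Cox4i1 (-0.09) from -0.57 to 0.24.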

Other observations

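In the lists of other mitochondrial genes, further genes had tumors 2 and 3 apart from tumor 1, Cox19 among them, and the examples here were chosen after their values were seen. Tomm20, a receptor of the outer membrane for protein import, gave 9.47, 9.47 and 9.39 in normal lung, 9.62 in tumor 1, and 12.90 and 13.03 in tumors 2 and 3. Pdha1, a subunit of pyruvate dehydrogenase, gave 12.34 to 12.37 in normal lung, 11.63 in tumor 1, and 14.05 and 14.06 in tumors 2 and 3. Tomm20 (adjusted p = 0.0707) and Pdha1 (adjusted p = 0.296) did not pass the limma test with marked spots kept. The slide, which separates the same arrays, was not tested apart from the tumor. Vdac1, the main porin of the outer membrane, rose with marked spots kept in all 3 tumors, from 7.53, 6.94 and 6.38 to 9.46, 9.59 and 9.32 (adjusted p = 0.00083). So did Suclg2, a TCA cycle enzyme, from 9.72, 10.14 and 10.06 to 12.04, 12.25 and 12.48 (adjusted p = 0.000111), and Gpd2, which feeds electrons from glycerol phosphate to ubiquinone, by 1.86 (SE 0.098).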
